A study of Drosophila melanogaster with 25 samples.

Results

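The 150 RNAs described here were the polyadenylated nuclear transcripts that fell furthest below input in all 6 kinds of RNA precipitate collected from 2 Drosophila cell lines. They were chosen from 5637 eligible genes with a mean of at least 5 CPM in the inputs of both lines, out of 16037 identifiers in the tables, of which 15035 had a count. CPM is a gene's count scaled so that every library has the same total over its genes, here without FBgn0085813, which alone took 2.75% to 30.1% of the counts of a library. For each gene the log2 ratio of mean CPM + 1 in a precipitate to that in the input of the same line was taken, the highest of the 6 ratios was the score, and the 150 lowest scores were kept. These ratios chose the genes, so they are given as a description and carry no test.

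The zinc finger protein Su(Hw) binds DNA and, with partner proteins, forms the gypsy chromatin insulator. Shep is an RNA-binding protein of the same insulator field, known in the fly for limiting insulator activity in nervous tissue. RIP-seq sequences the RNA recovered with a protein by an antiserum, so a ratio to input says how large a share of the precipitated RNA a transcript takes compared with its share of the nuclear RNA. A low ratio is relative to the other RNAs of the library, and it does not measure an absolute amount of bound RNA.

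The cells were Kc, a line of embryonic origin with blood cell features, and BG3, a line from the larval central nervous system. Kc contributed 6 input libraries, 3 Shep precipitates with antiserum Rb5, 2 with Rb6 and 2 with Gp01, and 3 Su(Hw) precipitates with Gp60. BG3 contributed 2 inputs, 2 Shep Rb5 and 2 Su(Hw) Gp60 precipitates, and no genetic change or treatment is given for any group. Each extract had been precleared with preimmune serum, but no mock precipitate was used here, so RNA retained by the beads or by an unrelated serum cannot be told apart from RNA retained with the proteins. All 4 Kc ratios rest on the same 6 inputs and both BG3 ratios on the same 2 inputs.

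The 22 libraries held 6190633 to 59066733 counts assigned to genes. Lines without a gene took 50.2% to 91.2% of all counts and reads with more than 1 placement 35.0% to 86.6%. The files give FBgn identifiers without symbols, and a symbol was found for 172 identifiers, or 1.07%, and for 0 of the 150 RNAs. The RNAs are therefore named by identifier, and their functions are not described. The markers of blood cells and of neurons that would check the 2 lines also matched 0 identifiers, so the lines stand as labelled.

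The 150 RNAs together took less of every precipitate library than of any input library. In the 6 Kc inputs they held 3.37% to 4.32% of the counts to genes without FBgn0085813, with a mean of 3.93% ± 0.434 (SD, n = 6). Their share was 1.78% to 2.08% in the 3 Kc Rb5 precipitates, 1.28% and 1.48% with Rb6, 1.69% and 2.09% with Gp01, and 1.34% to 1.64% with Su(Hw). The BG3 inputs gave 4.36% and 5.33%, the BG3 Rb5 precipitates 2.15% and 2.58%, and both BG3 Su(Hw) precipitates 1.81%. The rule that chose the RNAs sets the direction of this difference.

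**Figure D1:**
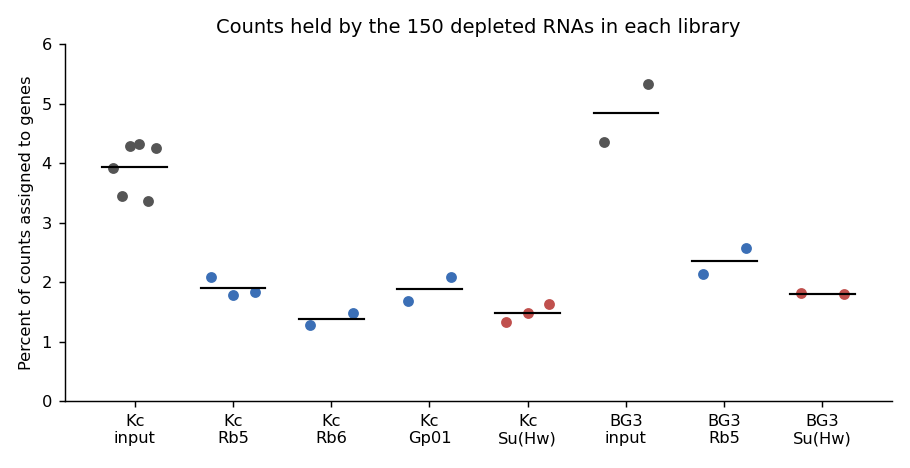
The vertical axis gives the percent of gene counts held by the 150 depleted RNAs, with 1 point per library and a line at each group's mean. Every input point, from 3.37% up, lies above every precipitate point, of which the highest is 2.58% in BG3 Rb5.

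The depth of the loss differed between precipitates. The median ratio of the 150 RNAs was -0.88 on the log2 scale with Kc Rb5, -0.74 with Gp01 and -0.86 with BG3 Rb5. It was -1.40 with Rb6, -1.53 with Kc Su(Hw) and -1.80 with BG3 Su(Hw). The precipitates also differed in where eligible genes as a whole lay, with medians of 0.15 for Kc Rb5, 0.30 for Gp01, 0.12 for BG3 Rb5, -0.11 for Rb6, -0.70 for Kc Su(Hw) and -0.73 for BG3 Su(Hw). Measured from the eligible median, the 150 RNAs lay between -0.83 with Kc Su(Hw) and -1.29 with Rb6. The low Su(Hw) medians were thus shared in large part by other eligible genes.

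Scaling by TMM, which sets libraries level on genes that change little between them, moved the Su(Hw) medians most. With it all 150 RNAs still had 5 CPM in both inputs, and their medians were -0.95 with Kc Su(Hw) and -1.34 with BG3 Su(Hw), against -1.08 with Kc Rb5, -1.06 with Gp01, -1.12 with BG3 Rb5 and -1.36 with Rb6. Under TMM 1 of the 150 was no longer below input with Kc Su(Hw) and 4 with BG3 Su(Hw), so that 145 lay below input in all 6. FBgn0085813, left out of the totals, took 13.7% to 30.1% of the counts of inputs, 2.75% to 9.46% of those of Kc precipitates, 3.53% and 3.74% with BG3 Rb5, and 12.9% and 22.8% with BG3 Su(Hw). With it in the totals the medians were -0.57 with Kc Rb5, -1.08 with Rb6, -0.47 with Gp01, -1.27 with Kc Su(Hw), -0.55 with BG3 Rb5 and -1.75 with BG3 Su(Hw). Within sequencing classes that held both input and precipitate, medians ran from -0.73 to -1.80, and 148 to 150 of the RNAs lay below input. Of eligible genes 32.4% to 91.7% lay below input there. The rule used the same libraries, so this is a description and not a check on the class. The order of the precipitates thus depends on the scaling, while Rb6 lay below the other 2 Shep antisera in Kc under both.

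**Figure D2:**
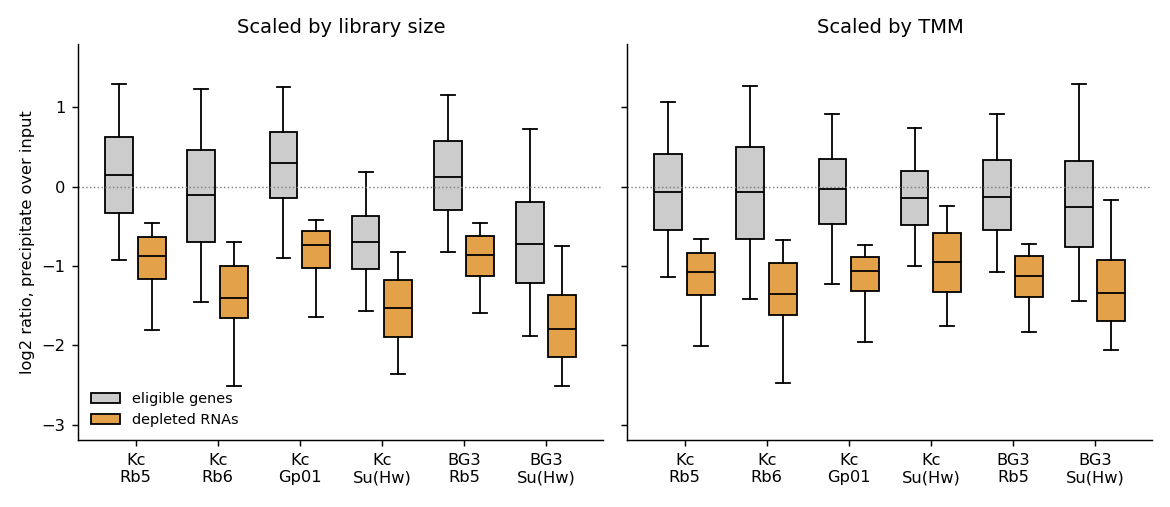
Boxes show the log2 ratio of precipitate to input for eligible genes and for the depleted RNAs, with the median, the quartiles and whiskers at the 5th and 95th percentiles, on library size scaling at left and TMM at right. The median of the depleted RNAs lies 0.83 to 1.29 under that of eligible genes at left and 0.81 to 1.28 under it at right, and the Kc Su(Hw) boxes move up together, from a median of -1.53 to -0.95 for the depleted RNAs.

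A ratio of -1 or lower, at least 2-fold below input, was reached by 57 of the 150 RNAs with Kc Rb5, 116 with Rb6, 40 with Gp01 and 127 with Kc Su(Hw). In BG3 it was reached by 52 with Rb5 and 137 with Su(Hw). Among eligible genes the same limit was passed by 3.96%, 14.5%, 3.97%, 27.9%, 2.36% and 35.3%, in the same order. The precipitate closest to input, which set the score, was Gp01 for 66 RNAs, Kc Rb5 for 37, BG3 Rb5 for 36, BG3 Su(Hw) for 7, Rb6 for 4 and Kc Su(Hw) for 0. The lowest of the 6 ratios lay in BG3 Su(Hw) for 89 RNAs and in Rb6 for 38.

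Inputs and precipitates overlapped for part of the RNAs when libraries were compared singly. All Kc Rb5 libraries lay below all Kc inputs for 73 of the 150 RNAs, against 8.96% of eligible genes. This held for 119 RNAs with Rb6 (26.4% of eligible genes), 70 with Gp01 (8.53%), 117 with Kc Su(Hw) (40.1%), 124 with BG3 Rb5 (23.2%) and 142 with BG3 Su(Hw) (53.2%). It held in all 6 precipitates for 44 RNAs, against 0.94% of eligible genes. These shares also follow from the choice of the genes, and fewer libraries make separation easier.

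In the edgeR fit over all 9961 tested genes, which scales by TMM and accounts for sequencing class, 119 of the 150 RNAs were called lower than input with Kc Rb5, where 14.9% of all tested genes were. The counts were 136 with Rb6 (15.9% of tested genes), 114 with Gp01 (10.2%), 104 with Kc Su(Hw) (11.2%), 91 with BG3 Rb5 (4.76%) and 113 with BG3 Su(Hw) (13% of tested genes). A call here means a Benjamini-Hochberg adjusted p under 0.05. Since the rule used these contrasts, nothing is read from the counts.

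FBgn0036908 had the lowest score of all eligible genes, -1.52. Its CPM in the 6 Kc inputs was 92.4 at the lowest, 127 at the median and 226 at the highest. It had 75.2, 28.9 and 35.97 in the Rb5 precipitates, 21.7 and 18.1 with Rb6, 36.5 and 29.5 with Gp01, and 19.8, 32.2 and 22.5 with Su(Hw). The BG3 inputs held 147 and 189 CPM of it, the Rb5 precipitates 50.3 and 65.8, and the Su(Hw) precipitates 21.7 and 35.6. No precipitate library reached an input library, and the Kc Rb5 library at 75.2 came closest.

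FBgn0030057 had the next lowest score, -1.46, and the steepest loss with BG3 Su(Hw) among the 10 lowest scores, at a ratio of -3.13. Its CPM in Kc inputs ran from 74.5 through a median of 92.2 to 171, and its Kc precipitates ran from 17.7 in a Su(Hw) library to 37.8 in an Rb5 library. In BG3 the inputs had 82.2 and 77.6 CPM, the Rb5 precipitates 22.7 and 26.9, and the Su(Hw) precipitates 6.27 and 10.3. Input and precipitate libraries did not overlap in either line.

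FBgn0034405 was the RNA with the third lowest score, -1.14, and it varied more from library to library. Its Kc inputs ran from 151 to 518 CPM with a median of 298, and 1 Gp01 precipitate, at 203 CPM, lay within that range while the other had 96.1. With Rb6 it had 34.2 and 67.8 CPM, and with Kc Su(Hw) 73.7, 90.3 and 25.1. The next RNAs by score were FBgn0039293 at -1.11, FBgn0000146 at -1.04, FBgn0032746 at -1.04, FBgn0029507 at -1.01, FBgn0011336 at -1.01, FBgn0038536 at -1.004 and FBgn0032949 at -1.003. In all, 12 RNAs were at least 2-fold below input in each of the 6 precipitates.

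The limit of 150 did not fall at a gap. The last 5 RNAs inside it, FBgn0029975, FBgn0011771, FBgn0010053, FBgn0030035 and FBgn0260987, had scores of -0.398 to -0.392. The first 5 genes outside, FBgn0033055, FBgn0015282, FBgn0053303, FBgn0028327 and FBgn0016034, had scores of -0.392 to -0.385. The median score was -0.57 inside, and 0.66 over eligible genes. In all, 639 eligible genes, or 11.3%, lay below input in every precipitate, so the 150 are the lower end of a continuous range.

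The 150 RNAs were mostly well expressed in the nuclear input. Their median was 92.6 CPM in Kc inputs and 102 CPM in BG3 inputs, against 42.9 and 38.9 CPM for eligible genes. When eligible genes were ranked by Kc input level, 72 of the 150 lay in the top 25% and 18 in the bottom 25%, and by BG3 input level 85 lay in the top 25% and 13 in the bottom 25%. The levels are not set per transcript length. The input level also enters the ratio that chose the RNAs, so it is a description and not an independent property.

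FBgn0066084 was the most abundant of them. Its CPM in Kc inputs was 7816 at the lowest, 8994 at the median and 12240 at the highest, and in BG3 inputs 12920 and 17440. It was lowest with Gp01, at 2040 and 1747 CPM, followed by Rb6 at 3567 and 3655. The Kc Rb5 precipitates had 5799, 4564 and 4108 CPM and the Kc Su(Hw) precipitates 5056, 5890 and 5449. In BG3 it had 6443 and 6591 CPM with Rb5, and 12440 and 5820 with Su(Hw). Of the Su(Hw) libraries 1 lay close to the inputs and the other did not. In the TMM-scaled fit its BG3 Su(Hw) mean was 16290 CPM (SD 14350), above the 14090 CPM of BG3 inputs.

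FBgn0000043, chosen for display after its values were seen, shows how far inputs could spread. Its Kc inputs ran from 591 to 3207 CPM with a median of 1159, and the Rb5 precipitates had 1095, 370 and 416 CPM. The Rb5 library at 1095 lay above 3 of the inputs, although the ratio of means was -1.23. In BG3 its inputs had 2000 and 1366 CPM, the Rb5 precipitates 901 and 794, and the Su(Hw) precipitates 244 and 498, with no overlap.

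**Figure D3:**
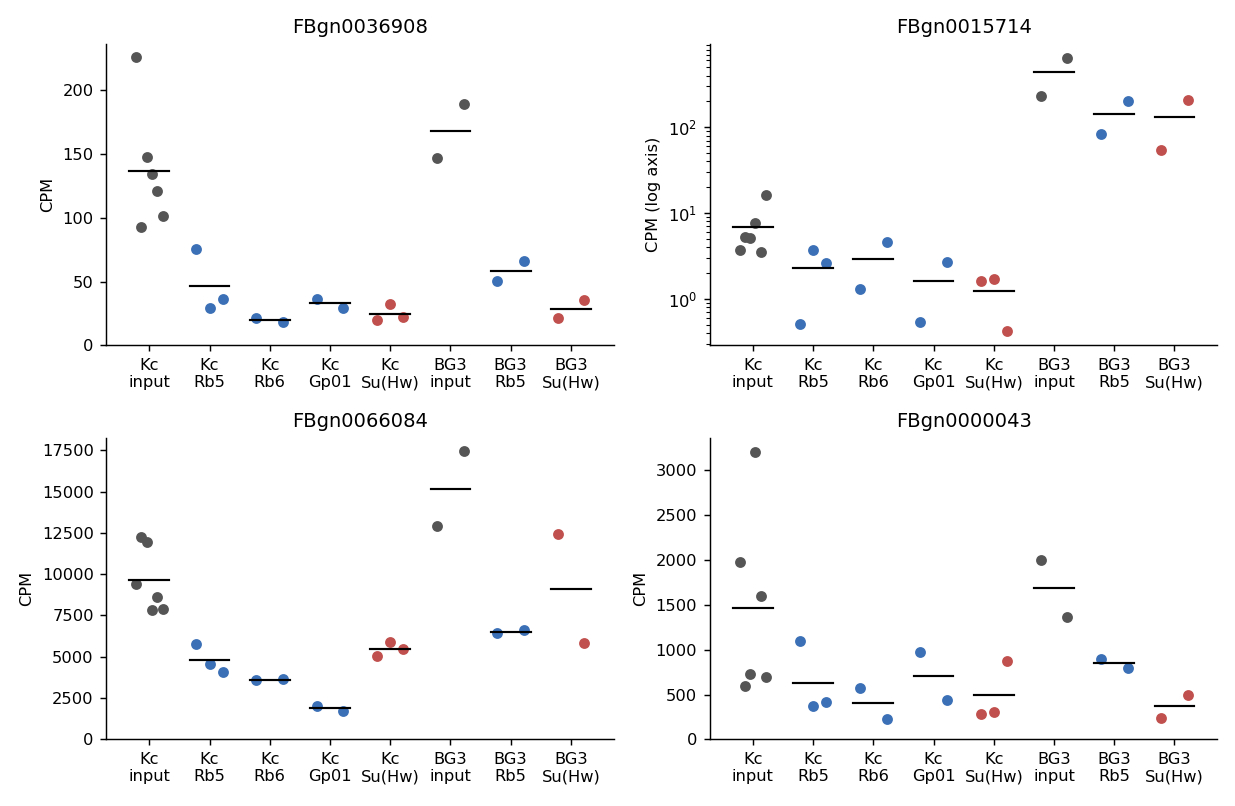
CPM of 4 depleted RNAs in each of the 22 libraries, with a line at each group's mean; the axis of FBgn0015714 is logarithmic. Inputs and precipitates are apart for FBgn0036908, overlap in Kc for FBgn0015714 and FBgn0000043, and for FBgn0066084 are apart in Kc but close in 1 BG3 Su(Hw) library.

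Differences were also tested between the inputs of the lines, between precipitates, and for the change in a ratio between lines. They come from the same libraries as the rule, which bounded each RNA in every precipitate, so they are not fully independent of it. P-values measure the spread between samples that the labels call biological replicates, and they do not account for any pairing by replicate number.

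Between the inputs, 55 of the 150 RNAs were higher in BG3 and 8 were lower. The total of 63, or 42%, is close to the 42.6% of all tested genes called in this comparison, but the split is not the same, since 23.9% of tested genes were higher and 18.7% lower. The median log2 difference was 0.40 over the 150 and 0.08 over all tested genes. A high input lowers the ratios that chose the RNAs, so this split is a description and not a separate result. With library size alone and without FBgn0085813, a setting added after the data were seen, 18 were higher and 9 lower. The share of all tested genes called there is not given, so nothing is read from these counts. The median of the 150 was then 0.11, and the median of all genes moved to -0.22. In these bulk samples fewer cells of a type and less RNA per cell cannot be told apart.

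FBgn0015714 differed most between the lines. Its Kc inputs ran from 3.55 through a median of 5.18 to 16.1 CPM, and its BG3 inputs had 229 and 645 CPM. The log2 difference was 6.83 ± 0.63 (SE, edgeR adjusted p = 4.37e-07). In Kc it was near the lower limit for eligibility, with precipitates at 0.419 to 4.57 CPM, while in BG3 it had 82.3 and 202 CPM with Rb5 and 53.9 and 209 with Su(Hw). It was therefore among the depleted RNAs at very unequal levels.

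FBgn0260746 had 101 and 124 CPM in BG3 inputs and 3.897 to 14.4 in Kc inputs, a log2 difference of 4.54 ± 0.42 (SE, edgeR adjusted p = 1.02e-07). FBgn0052195, at 3.95, and FBgn0040384, at 2.87, were also higher in BG3. Of those lower in BG3, FBgn0026197 had 44.1 to 254 CPM in Kc inputs and 4.04 and 6.37 in BG3 inputs, a log2 difference of -3.67 ± 0.68 (SE, edgeR adjusted p = 0.000474). FBgn0028523 had 96.5 to 252 CPM in Kc and 26.3 and 28.4 in BG3, a difference of -2.60. FBgn0036147, at -1.67, and FBgn0032746, at -0.97, were lower as well. The inputs of the 2 lines did not overlap for any of these 8 RNAs, which was a condition for naming them.

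**Figure D4:**
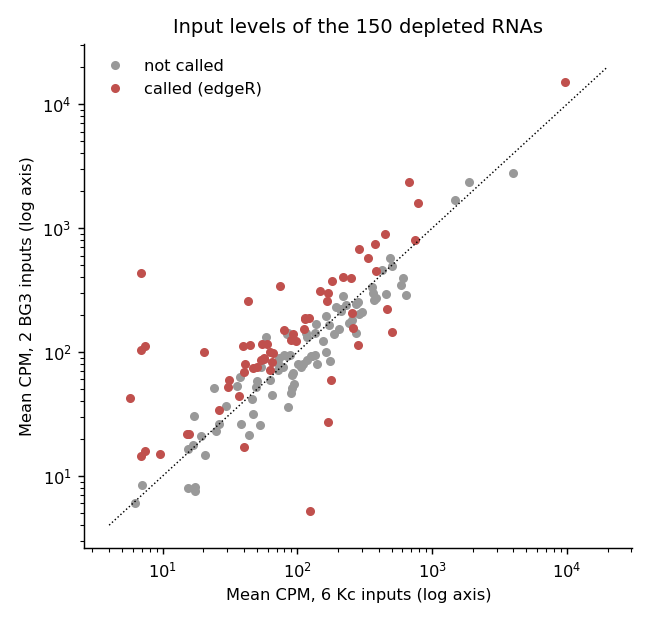
Each point is 1 of the 150 depleted RNAs, placed by its mean CPM over 6 Kc inputs and over 2 BG3 inputs on logarithmic axes, with the line of equal level dotted. The 63 called RNAs are coloured, and of these 55 were higher in BG3.

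Between proteins in Kc, 7 of the 150 RNAs were higher and 29 lower in Rb5 than in Su(Hw) precipitates under TMM. This is 24% of them, where 26.6% of all tested genes were called, 12.7% higher and 13.9% lower. With library size alone the direction turned, to 56 higher and 0 lower, where 44.6% of tested genes were called. The median of the 150 then moved from -0.15 to 0.76, and that of all tested genes moved with it from -0.08 to 0.84. Relative to other genes the RNAs as a group thus lay close to the middle on either scaling, and the share of higher against lower calls should not be read without the scaling.

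FBgn0000339 was the RNA with the largest fall in Rb5 against Su(Hw) in Kc. It had 100, 153 and 144 CPM with Rb5 and 198, 201 and 198 with Su(Hw). The groups did not overlap, which was a condition for naming it. Its difference was -1.51 ± 0.25 (SE, edgeR adjusted p = 0.000301). With library size alone the difference was -0.60 (edgeR adjusted p = 0.144), the only alternative of those run under which it lost its call. FBgn0069242 at -1.48, FBgn0034059 at -1.37 and FBgn0031544 at -1.27 behaved alike in this respect, each losing its call on library size alone. FBgn0031217, at 0.94, was higher with Rb5. The count of 36 RNAs called in either direction was 13 without Rb5 replicate 3 and 18 without Su(Hw) replicate 1 or 2.

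In BG3, 12 of the 150 RNAs were higher and 8 lower in Rb5 than in Su(Hw) precipitates, or 13.3%, where 14.3% of all tested genes were called, 7.73% higher and 6.6% lower. The median was 0.15 over the 150 and -0.02 over tested genes. With library size alone 53 were higher and 1 lower, 27.5% of tested genes were called, and the medians became 0.90 and 0.73. The count rests on single libraries, being 0 without Rb5 replicate 2, 13 without Rb5 replicate 1 and 2 without Su(Hw) replicate 1. Su(Hw) replicate 1 stood apart in scaling, with a TMM factor of 0.41 against 0.73 for its partner.

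Under TMM both lines called 3 of the 150 RNAs, or 2%, higher with Rb5 and 6, or 4%, lower, where 5.33% of all tested genes were higher in both and 3.03% lower in both. With library size alone 38, or 25.3%, were higher in both and 0 lower in both. Of all tested genes 21.3% were then higher in both and 0.84% lower in both. The direction for the 150 turned here too, while the share higher in both also rose over all tested genes. On neither scaling was an RNA of the 150 called in opposite directions. This was rare over all tested genes as well, at 14 of 9961 under TMM and 23 of 9761 with library size alone. FBgn0066084, described above, was lower with Rb5 in BG3 by the fit, at -1.61 ± 0.47 (SE, edgeR adjusted p = 0.0260), but without Su(Hw) replicate 1 the difference was -0.20 (edgeR adjusted p = 0.854).

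FBgn0036565 stood out by antiserum. In Kc it had 29.2, 20.5 and 24.3 CPM with Rb5 and 28.0 and 23.8 with Rb6, but 10.1 and 12.2 with Gp01 and 6.07, 4.76 and 10.7 with Su(Hw). The Kc inputs had 20.5 to 55.8 CPM with a median of 33.9. The BG3 inputs had 39.7 and 67.4 CPM, against 23.8 and 39.4 in the Rb5 and 4.26 and 10.3 in the Su(Hw) precipitates. It thus lay nearer to input with Rb5 and Rb6 than with Gp01 and Su(Hw).

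The fit called FBgn0036565 higher in Rb5 than in Su(Hw) in Kc, at 1.22 ± 0.24 (SE, edgeR adjusted p = 0.00129). The difference in BG3 was 1.35 ± 0.27 (SE, edgeR adjusted p = 0.00287). In Rb6 against Gp01 it was 1.53 ± 0.27 (SE, edgeR adjusted p = 0.000386). Both Kc calls held under every alternative run, with adjusted p up to 0.0377 and 0.0382 in edgeR or DESeq2, while the BG3 call was lost in 2 of them, with adjusted p up to 0.0604.

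Between the Shep antisera Rb6 and Gp01 in Kc, which address the same protein, 3 of the 150 RNAs were higher and 27 lower with Rb6. This is 20% of them, where 28.2% of all tested genes were called, 13.3% higher and 14.9% lower. The median difference was -0.29 over the 150 and 0.01 over tested genes, and with library size alone it was -0.60 and -0.28. The split was 2 higher and 27 lower on that scaling. The share of all tested genes called is not given for it, so nothing is read from that split. The 2 antisera were each used in 1 library of 2 sequencing classes, and all 30 called RNAs kept their direction within both classes. The same libraries gave the calls, so this describes them and is not a separate check.

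FBgn0032213 differed most between these antisera. It had 18.5 and 18.4 CPM with Rb6 and 96.8 and 118 with Gp01, with Kc inputs of 104 to 252 CPM, so 1 of the Gp01 libraries lay among the inputs and the Rb6 libraries lay below them. The difference was -2.22 ± 0.33 (SE, edgeR adjusted p = 7.98e-05). FBgn0014868 had 80.5 and 101 CPM with Rb6 and 360 and 467 with Gp01, against inputs of 432 to 832, a difference of -1.88 ± 0.33 (SE, edgeR adjusted p = 0.000333). FBgn0032015, at -1.67, and FBgn0000326, at -1.66, were lower with Rb6 too, and all 4 kept their calls under every alternative run. The count of 30 was 15 and 14 without Gp01 replicate 1 or 2, and 11 and 13 without Rb6 replicate 1 or 2.

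**Figure D5:**
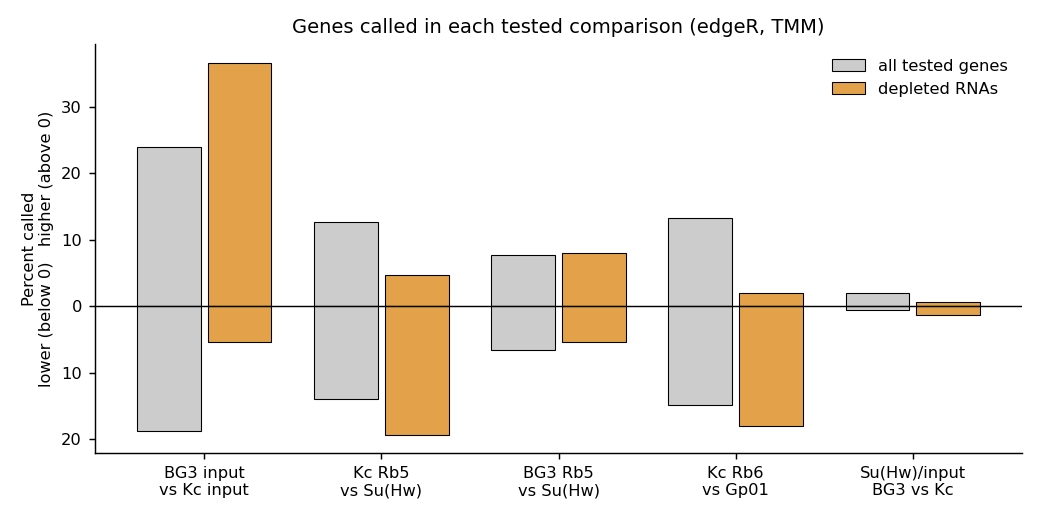
Bars give the percent of all 9961 tested genes and of the 150 depleted RNAs called higher (above 0) and lower (below 0) in 5 comparisons by edgeR with TMM. The RNAs tilt to higher in BG3 inputs, 55 against 8, and to lower in Rb6 against Gp01, 27 against 3, while with library size alone the inputs gave 18 against 9 and the tilt of Kc Rb5 against Su(Hw) turned.

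The Rb5 ratio to input was called different between BG3 and Kc for 0 of the 150 RNAs by edgeR, where 0.0904% of all tested genes were called. At an unadjusted p under 0.05 there were 11, and DESeq2 called 0. The median difference was 0.05, the quartiles were -0.28 and 0.30, and the median SE of a difference was 0.37. The test does not show that the ratios are alike.

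The Su(Hw) ratio was higher in BG3 for 1 of the 150 RNAs and lower for 2, where 2.02% of all tested genes were called higher, 0.572% lower and 2.59% in all. FBgn0032949 had 473 to 963 CPM in Kc inputs and 323, 381 and 335 with Kc Su(Hw), but 596 and 999 CPM in BG3 inputs and 70.8 and 208 with BG3 Su(Hw). Its ratio was lower in BG3, by -1.50 ± 0.34 (SE, edgeR adjusted p = 0.0207). FBgn0260742, with 18.2 to 23.0 CPM in Kc Su(Hw) and 8.20 and 19.3 in BG3 Su(Hw), against inputs of 40.2 to 92.4 CPM in Kc and 79.7 and 86.8 in BG3, differed by -1.16 ± 0.28 (SE, edgeR adjusted p = 0.0311). Of the 150, 39 had a difference above 0, and the median was -0.32 against 0.00 over tested genes. Both ratios had entered the rule, so this tilt and the calls are a description. The count of 3 was 0 without BG3 Su(Hw) replicate 1 or BG3 input 2, and 5 without BG3 Su(Hw) replicate 2. It was 1 without BG3 input 1, Kc input 3 or 6, either Gp01 or Rb6 library, or Kc Su(Hw) replicate 1 or 2. It was 2 without Kc input 2 or 5 or Kc Rb5 replicate 2. Without Kc Su(Hw) replicate 3 it was also 2, but neither FBgn0032949 (edgeR adjusted p = 0.0519) nor FBgn0260742 (edgeR adjusted p = 0.0627) was called.

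FBgn0025882 was the third, and it had the widest range of ratios, 3.62 between its highest and lowest. Its Kc inputs had 3.21, 6.54, 1.85, 7.23, 49.5 and 35.1 CPM, so 2 of them carry the mean. It was listed at 0 in 2 Kc Su(Hw) libraries and had 0.320 CPM in the other, and in Kc Rb5 it had 0.427, 0.0828 and 0. The BG3 inputs had 8.25 and 7.97 CPM, BG3 Rb5 had 1.19 and 0.205, and BG3 Su(Hw) had 7.89 and 3.69. The fitted difference of 6.62 ± 1.56 (SE, edgeR adjusted p = 0.0398) rests on counts at or near 0 and depends on the prior count. Its call too was lost without Kc Su(Hw) replicate 3 (edgeR adjusted p = 0.163), and in all in 18 of the alternatives run. FBgn0036667 had the narrowest range, 0.40, with ratios of -0.58 to -0.99 on library size. In the TMM-scaled fit its BG3 Su(Hw) mean was 159 CPM (SD 106), above the 133 CPM of BG3 inputs.

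Of 392 symbols in the gene lists kept for pathways and cell types, 8 had an identifier, 6 of these were eligible and 0 were among the 150 RNAs. Among eligible genes with a symbol, the closest to the limit were mfas, at rank 357 with a score of -0.18, and Pnn, at rank 397 with -0.15. No statement on pathways or cell types among the RNAs can be made from these identifiers.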

How the data were processed

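RNA precipitated with Shep or Su(Hw) and input nuclear RNA were sequenced in 25 samples. The authors deposited raw counts per gene for each; per the submitters' processing notes, cutadapt 1.2.1, TopHat2, Bowtie2, HTSeq and DESeq were used with build dm3. Neither the strand setting nor the annotation is given in the sources used here, so overlapping and antisense genes are uncertain. There were 3 pairs of identical files, each used as 1 library, so 22 libraries in 8 groups remained. Lines that name no gene stayed out.

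The members and the gene lists were chosen with earlier results of these data known. Members came from the rule stated in the report. Differences were tested with edgeR 4.0.16 (robust quasi-likelihood test, limma 3.58.1, R 4.3.3) on the counts with TMM, 8 group means and 4 sequencing classes, minimum count 10, minimum total 15, and Benjamini-Hochberg adjustment over 9961 genes. The classes come from the sequencer and quality encoding in the labels. DESeq2 1.42.0 was an alternative. The fitting code was tested on simulated data. Symbols were looked up in RefSeq's genes for another build (GCF_000001215.4), so no coordinates are given, and no sequence was used here.

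Named RNAs are the 10 lowest scores, the 5 on each side of the limit, and, per comparison, up to 4 called in each direction with the largest difference, at least 10 CPM in 1 group and no overlap. Intervals were not computed for counts, and SD and SE cover the spread between libraries. FBgn0085813 was left out of the totals for CPM but kept in the edgeR fit. Alternatives were leaving it out there, other scalings, filters, pseudocounts, input limits, designs and leaving out each library.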

Additional observations from a re-analysis of the deposited data

Results flagged for a closer look

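FBgn0030057 had 170.9 CPM in Kc input 6 and 74.5 to 102 CPM in the other 5 Kc inputs. FBgn0015714 had 16.1 CPM in the same library and 3.55 to 7.66 in the others. FBgn0031245 had 121.7 CPM in Kc input 4 and 78.9 to 89.8 in the others. In each case 1 library lay far from the rest by Dixon's 95% criterion for 6 samples. The criterion was applied to 49 values, and chance marks about 1 in 20.

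The Su(Hw) ratio to input differed between BG3 and Kc for 3 RNAs by the edgeR interaction term, FBgn0025882 by 6.62, FBgn0032949 by -1.50 and FBgn0260742 by -1.16 on the log2 scale. Without the sequencing class, 0 of the 3 were called by edgeR. Of all alternatives run, the call was lost in 18 for FBgn0025882, 16 for FBgn0260742 and 7 for FBgn0032949. Both ratios compared had entered the rule that chose the RNAs.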

How the results depend on the processing

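Counts of called RNAs moved with the design. Without the sequencing class they were 21 for Kc Rb5 against Su(Hw), 7 for BG3 Rb5 against Su(Hw), 19 for Rb6 against Gp01 and 0 for the Su(Hw) ratio between lines. With only the compared groups they were 28 for the inputs, then 22, 0, 68 and 0 in the order just given. DESeq2 called 9 for the Su(Hw) ratio. With library size alone and without FBgn0085813, chosen after seeing the data, the counts were 27 for the inputs, 56 for Kc Rb5 against Su(Hw), 54 for BG3 Rb5 against Su(Hw) and 1 for the Su(Hw) ratio. The cause of these moves was not tested.

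With a replicate block instead of the sequencing class, the counts were 12 for BG3 Rb5 against Su(Hw) and 0 for the Su(Hw) ratio; the other 4 stayed within 1.5 times. Under it the Su(Hw) ratio had edgeR adjusted p of 0.0557 for FBgn0032949, 0.141 for FBgn0260742 and 0.206 for FBgn0025882. Same-numbered samples had a median correlation of deviations of 0.47 over 29 pairs (-0.51 to 0.82, with 21 over 0.1), and other pairs had -0.24 over 80. This is a hint of pairing from the data, but 8 pairs were not over 0.1 and the labels tie the number to no shared batch. In Kc the same number can join libraries of different sequencing classes, as for input 1 and Rb6 replicate 1. Deviations were taken from group means, so between groups of 2 libraries the other pairs mirror the same-numbered ones. These correlations therefore cannot decide whether the libraries were paired. The pairs pool both lines. In BG3, reads with more than 1 placement took 73.8%, 72.7% and 74.5% in replicate 1 of input, Rb5 and Su(Hw). They took 85.7%, 86.6% and 84.2% in replicate 2, and all these libraries share 1 sequencing class. The block was not used as the design, so p-values of the main fit do not account for pairing.

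Leaving out 1 library gave 47 to 66 for the inputs, 13 to 37 for Kc Rb5 against Su(Hw), 0 to 22 for BG3 Rb5 against Su(Hw), 11 to 33 for Rb6 against Gp01, 0 to 0 for the Rb5 ratio and 0 to 5 for the Su(Hw) ratio. The lowest count for Kc Rb5 against Su(Hw), 13, came without Rb5 replicate 3, and that for Rb6 against Gp01, 11, without Rb6 replicate 1. Of the 150 members, 111 to 150 were chosen again, 59 of them every time, with 111 when Gp01 replicate 1 was left out.

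Other settings kept 109 with TMM, 131 with medians, 137 and 142 with input limits of 10 and 2 CPM, 148 and 142 with pseudocounts of 0.5 and 5, and 142 with FBgn0085813 in the totals. Ratio medians became -1.08 for Kc Rb5, -1.06 for Gp01 and -0.95 for Kc Su(Hw) under TMM, and -1.25 for Rb6 with pseudocount 5. With FBgn0085813 they were -0.57 for Kc Rb5, -1.08 for Rb6, -0.47 for Gp01, -1.27 for Kc Su(Hw) and -0.55 for BG3 Rb5. Leaving out libraries gave -0.95 to -0.80 for Kc Rb5, -1.50 to -1.33 for Rb6, -0.93 to -0.71 for Gp01, -1.62 to -1.46 for Kc Su(Hw), -1.09 to -0.71 for BG3 Rb5 and -2.46 to -1.35 for BG3 Su(Hw). Of 1020 alternatives for 34 named results, 897 kept direction and call, 123 lost the call and 0 reversed, and 14 results were called throughout. Most alternatives left out a single library, often from a group outside the comparison, and the named results were picked as the largest calls. These counts therefore do not measure how firm a result is.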
